A study of Mus musculus with 6 samples.

Results

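The expression of 10 genes of the perineuronal net and brain matrix was compared between the hippocampus of Trpc4 knockout and wild-type mice. Trpc4 encodes a receptor-operated cation channel. The 10 are the lectican genes Acan, Bcan, Ncan and Vcan, the link protein genes Hapln1 and Hapln4, the tenascin genes Tnr and Tnc, and the hyaluronan synthase genes Has2 and Has3. All 10 were measured, among 22180 genes tested. Each gene was read from a probe set that the array annotation assigns to it alone, and, for Ncan with its second such probe set, from the one with the higher mean over the 6 arrays.

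The perineuronal net is a dense lattice of extracellular matrix around the cell body and proximal dendrites of certain neurons, above all fast-spiking interneurons and, in the hippocampus, CA2 pyramidal cells. Hyaluronan chains, extruded by hyaluronan synthases at the cell surface, carry chondroitin sulphate proteoglycans of the lectican family. Link proteins clamp the lecticans to hyaluronan, and tenascins crosslink their other ends. The same molecules, in looser form, fill the space between neurons and glia throughout the brain.

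The samples were 3 Trpc4 knockout and 3 wild-type hippocampi. All came from male mice of postnatal day 56 on a C57BL/6J background, and each was hybridised to its own Affymetrix expression array. The deleted stretch of Trpc4, and whether it was missing in every cell, are not stated in the labels. Nor do they say that samples of a genotype came from different mice, and the p-values below cover only sample-to-sample spread, some of which may be technical. Signals are on the log2 scale of the authors' RMA normalization, differences are knockout minus wild type, and a difference of 1 is a doubling.

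The arrays were alike in bulk, with medians of 4.73 to 4.75 and Pearson's r of 0.985 to 0.988 across probe sets for every pair. The Trpc4 signal itself was 7.39, 7.55 and 7.31 in knockout replicates 1 to 3, against 8.06, 8.23 and 8.06 in wild-type replicates 1 to 3. The groups did not overlap, and the difference was -0.70 ± 0.09 (standard error; limma adjusted p 0.738). Of 12 measured markers of hippocampal pyramidal and granule neurons, 11 had a mean signal higher than 4.72, which is the median over all probe sets. Signals of different probe sets depend on their probes and are not set against each other here. Acan and Has2 had mean signals just below that median, so their values rest on dim probe sets. The other 8 genes lay above it, as did 12978 of the 22180 genes tested. Has3, at 4.76, was only just above it and below the 5.23 median of the genes tested.

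None of the 10 matrix genes passed an adjusted p of 0.05 between genotypes (limma with Benjamini-Hochberg adjustment over all genes tested). The smallest adjusted p was 0.853, for Has2. Over all genes the share called was likewise 0%, and the deleted gene Trpc4 did not pass either (limma adjusted p 0.738). Not passing in this fit therefore does not show that a gene was unchanged. Differences of the 10 genes ran from -0.30 to 0.20, and 5 of 10 genes were higher in knockout, where 54.9% of all genes were. Their median difference was -0.0013, against 0.01 for all genes tested, and the median size of the difference was 0.12, against 0.08. At an unadjusted limma p under 0.05, 0 of 10 genes were higher in knockout, where 3.16% of all genes were, and 1 of 10 was lower, where 2.59% of all genes were.

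**Figure D1:**
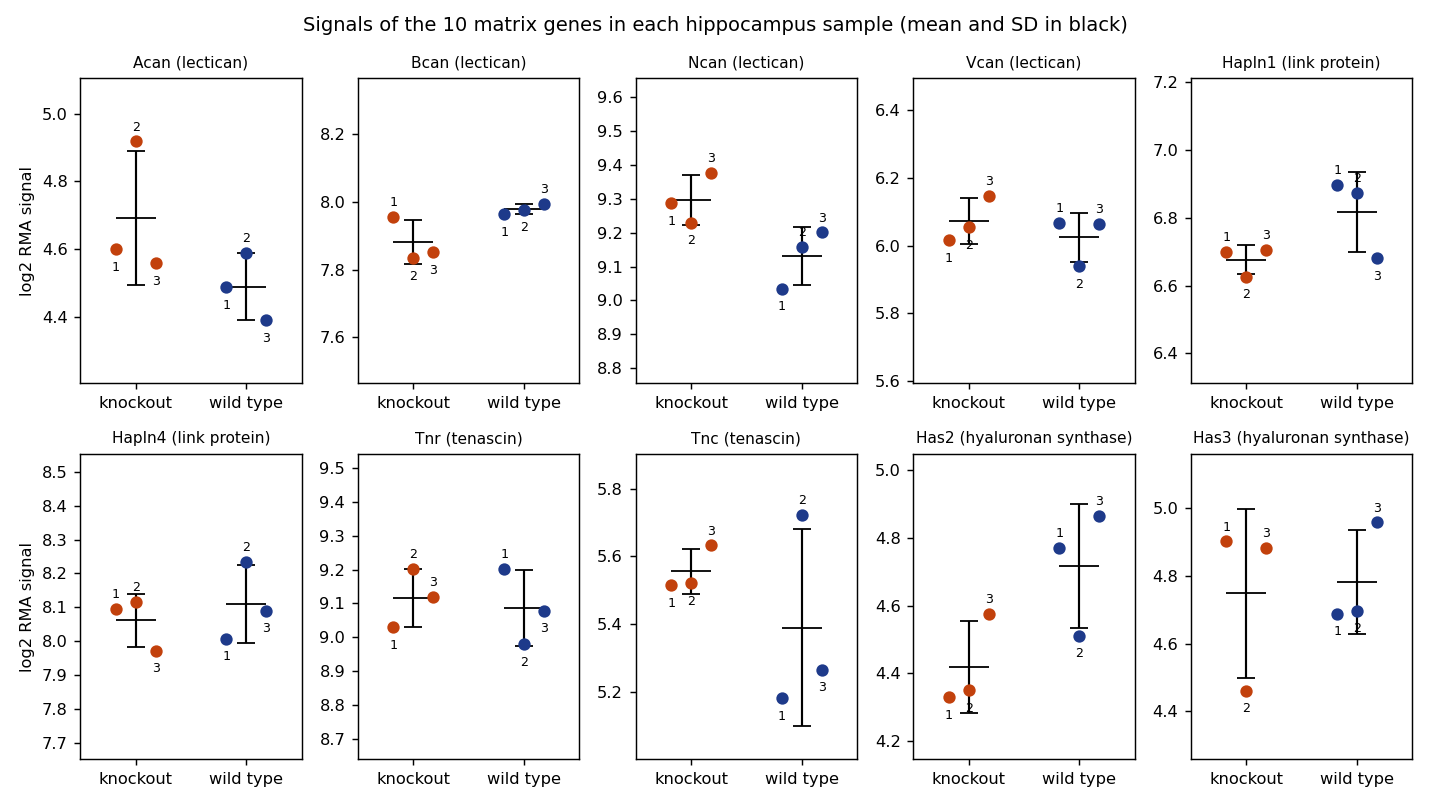
Log2 RMA signal of the 10 matrix genes in each sample, Trpc4 knockout (orange) left of wild type (blue), with replicate numbers beside the points and mean and SD (n = 3) in black. Each panel has its own centre and the same axis length, so spreads can be compared between panels. Ncan and Bcan are the panels in which the genotypes do not overlap.

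Among the lecticans, aggrecan marks mature nets most strictly, brevican and neurocan belong to the brain matrix, and versican is best known from white matter and oligodendrocyte precursors. Ncan had signals of 9.29, 9.23 and 9.38 in knockout replicates 1 to 3, against 9.03, 9.16 and 9.20 in wild-type replicates 1 to 3. All 3 knockout values thus lay above all 3 wild-type values, although the lowest knockout and the highest wild-type sample were nearly equal. Ncan differed by 0.17 ± 0.08 (here and below, standard error), with a 95% interval of -0.02 to 0.36 (limma adjusted p 0.862), which puts knockout at 112% of wild type on the linear scale. Of all genes, 6.41% were higher without overlap, as Ncan was.

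A second probe set naming Ncan alone did not show this difference. Its signals were 7.06, 6.69 and 6.84 in knockout, against 6.72, 6.95 and 6.97 in wild type. The genotypes overlapped there, with means of 6.86 in knockout and 6.88 in wild type. With both probe sets averaged, Ncan differed by 0.08. The 2 probe sets thus disagree about Ncan, and which part of the transcript each one covers was not analysed here.

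Bcan was the steadiest of the 10 genes across arrays. Its signals were 7.96, 7.83 and 7.85 in knockout, against 7.96, 7.98 and 7.99 in wild type, where the SD was only 0.02. The groups did not overlap, but knockout replicate 1 came within 0.01 of wild-type replicate 1. The difference was -0.10 ± 0.07 (standard error), with an interval of -0.27 to 0.07 and an adjusted p of 0.904 (limma), which puts knockout at 93.5% of wild type. Of all genes, 4.45% were lower without overlap. The exact two-sided permutation p was 0.1 for Bcan and 0.1 for Ncan, the smallest that 3 against 3 samples can give.

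Acan signals were 4.60, 4.92 and 4.56 in knockout, against 4.49, 4.59 and 4.39 in wild type. Knockout replicate 2 stood above the other 5 samples, and the remaining values overlapped. The difference of 0.20 ± 0.11 (interval -0.06 to 0.47) was the highest of the 10 genes. It became 0.09 without knockout replicate 2 and 0.27 without knockout replicate 3. Vcan signals were 6.02, 6.05 and 6.15 in knockout, against 6.07, 5.94 and 6.07 in wild type, and the genotypes were intermingled. Vcan differed by 0.05 ± 0.08, with an interval of -0.13 to 0.23. Its difference was 0.0064 without wild-type replicate 2. Leaving out knockout replicate 3 gave 0.01, and leaving out knockout replicate 1 gave 0.08.

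Link proteins stabilise the bond between a lectican and hyaluronan. Hapln1, the link protein first known from cartilage and made by net-bearing neurons, had signals of 6.70, 6.63 and 6.71 in knockout, against 6.90, 6.87 and 6.68 in wild type. The knockout samples were tightly grouped, and wild-type replicate 3 lay among them, while wild-type replicates 1 and 2 were higher. The difference was -0.14 ± 0.09, with an interval of -0.34 to 0.06 (limma adjusted p 0.886). Hapln4, a brain link protein that helps place brevican in nets and at inhibitory synapses, had signals of 8.09, 8.12 and 7.97 in knockout, against 8.01, 8.23 and 8.09 in wild type. These groups overlapped throughout, with a difference of -0.05 ± 0.09 and an interval of -0.25 to 0.16. The Hapln4 difference was 0.01 without wild-type replicate 2, -0.0041 without knockout replicate 3, -0.10 without wild-type replicate 1 and -0.08 without knockout replicate 2.

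Tenascin-R, the product of Tnr, is made by oligodendrocytes and some interneurons and crosslinks lecticans in mature nets. Its signals were 9.03, 9.20 and 9.12 in knockout, against 9.20, 8.98 and 9.08 in wild type. Both genotypes spanned nearly the same range, and the difference of 0.03 ± 0.09 had an interval of -0.18 to 0.24. Leaving out wild-type replicate 2 gave -0.02 and leaving out knockout replicate 2 gave -0.01. It was 0.07 without knockout replicate 1 and 0.09 without wild-type replicate 1.

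Tenascin-C, encoded by Tnc, belongs mainly to the developing and injured brain. Its signals were 5.51, 5.52 and 5.63 in knockout, against 5.18, 5.72 and 5.27 in wild type. Wild-type replicate 2 was the highest of all 6 samples, and wild-type replicates 1 and 3 were the lowest. The difference of 0.17 ± 0.14 (interval -0.16 to 0.50) depended on single wild-type samples. It was 0.33 without wild-type replicate 2, 0.06 without wild-type replicate 1 and 0.10 without wild-type replicate 3.

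Hyaluronan synthases make the backbone on which the other components assemble. Has2 had signals of 4.33, 4.35 and 4.58 in knockout, against 4.77, 4.51 and 4.87 in wild type. The groups overlapped only in that knockout replicate 3 exceeded wild-type replicate 2. The difference was -0.30 ± 0.12, with an interval of -0.57 to -0.03, and knockout stood at 81.4% of wild type. Has2 was the gene of the 10 with an unadjusted limma p under 0.05, at 0.036, and its exact two-sided permutation p was 0.2. Leaving out knockout replicate 1 or 2, or wild-type replicate 1 or 3, brought the unadjusted limma p to between 0.0967 and 0.118, with differences of -0.27 to -0.22. The difference was -0.40 without wild-type replicate 2. A probe set that names both Has2 and its antisense gene Has2os was not tested and had means of 3.13 in knockout and 3.11 in wild type.

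Has3 signals were 4.90, 4.46 and 4.88 in knockout, against 4.69, 4.70 and 4.96 in wild type. Knockout replicate 2 was the lowest sample and the rest overlapped. The difference was -0.03 ± 0.14 (interval -0.36 to 0.29). It became 0.11 without knockout replicate 2 and 0.06 without wild-type replicate 3, and lay between -0.11 and -0.07 without any other single sample.

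**Figure D2:**
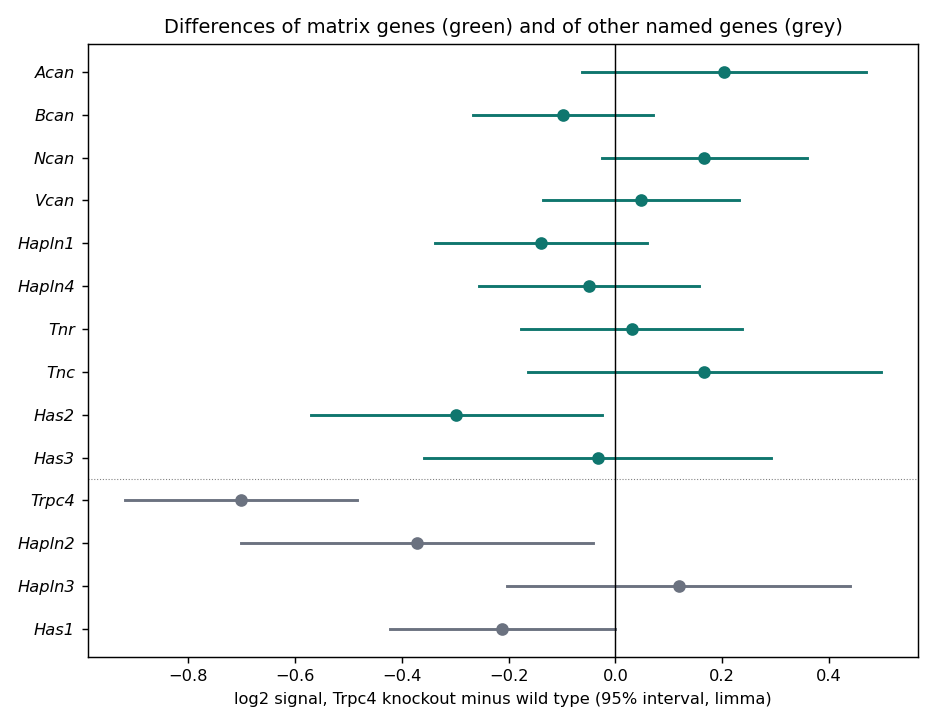
Log2 difference, Trpc4 knockout minus wild type, with its 95% interval from limma, for the 10 matrix genes (green) and, under the dotted line, Trpc4 and the remaining link protein and hyaluronan synthase genes (grey). Of the green intervals only that of Has2 (-0.57 to -0.03) leaves out 0, and no gene passed the adjusted threshold.

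In bulk tissue, fewer cells of a type and less RNA per cell cannot be told apart. By role, the mean deviation of the 4 lectican genes from their gene means was 0.02, 0.06 and 0.04 in knockout replicates 1 to 3, against -0.06, -0.03 and -0.03 in wild-type replicates 1 to 3. The genotypes did not overlap, but Bcan was lower in knockout. The mean rests mostly on Acan, of dim signal, and on the chosen Ncan probe set. The second Ncan probe set, which differed by -0.015, did not enter it. The 2 synthase genes gave -0.05, -0.26 and 0.06 in knockout, against 0.06, -0.06 and 0.25 in wild type, and overlapped, as did the link protein and tenascin genes. Over all 10 genes the mean deviation was -0.01, -0.02 and 0.03 in knockout, against -0.02, 0.02 and 0.0067 in wild type, and the genotypes overlapped.

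The genes of lecticans and link proteins sit side by side in the genome as pairs. In the RefSeq order of mouse genes no annotated protein-coding gene lies between Vcan and Hapln1 on chromosome 13, Ncan and Hapln4 on chromosome 8, Bcan and Hapln2 on chromosome 3, or Acan and Hapln3 on chromosome 7. Trpc4 is also on chromosome 3. Hapln2, a link protein of the nodes of Ranvier made by myelinating oligodendrocytes, had signals of 6.24, 5.80 and 5.97 in knockout, against 6.25, 6.27 and 6.60 in wild type. All knockout values were lower, knockout replicate 1 by only 0.01, and the difference was -0.37 ± 0.14 (limma adjusted p 0.853).

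Markers of the cells that make Hapln2 were also lower on average. Of 13 measured mature oligodendrocyte and myelin markers, 13 were lower in knockout, by 0.25 to 0.68, where 54.9% of all genes were higher. At an unadjusted limma p under 0.05, 13 of the 13 were lower, where 2.59% of all genes were. In 12 of the 13 the groups did not overlap with knockout lower, where 4.45% of all genes were. None of the 13 markers passed the adjusted threshold. Their mean deviation was -0.22, -0.50 and 0.07 in knockout, against 0.25, 0.15 and 0.26 in wild type, and their median difference of -0.44 was -0.28 without knockout replicate 2. Tspan2, Aspa and Cnp, the 3 of them with the smallest unadjusted limma p, differed by -0.62 ± 0.15, -0.68 ± 0.18 and -0.44 ± 0.14. The part of these markers in the Hapln2 and Tnr values was not tested. Hapln3 signals were 4.61, 4.66 and 4.64 in knockout, against 4.28, 4.44 and 4.84 in wild type. That difference, 0.12 ± 0.14, was 0.28 without wild-type replicate 3, 0.08 without wild-type replicate 2 and 0.00052 without wild-type replicate 1.

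Side by side, the neighbours did not share a sign in 2 of the 4 pairs. Vcan differed by 0.05 and Hapln1 by -0.14, and Ncan by 0.17 and Hapln4 by -0.05. Bcan and Hapln2 were both lower, and Acan and Hapln3 both higher. The differences of Vcan, Hapln4 and Hapln3 were smaller than their standard errors, so the count of pairs rests on signs that are not settled. With the second Ncan probe set, at -0.015, Ncan and Hapln4 would both be lower. Over the 6 arrays, the gene whose standardised signals lay closest to those of Bcan, among 204 other genes of the lists used here, members included, was Hapln2, at a root mean square distance of 0.33. The closest to Acan was the oligodendrocyte precursor gene Lhfpl3 (0.38), and that to Ncan the hyaluronan-binding heavy chain gene Itih2 (0.43). For the others the closest were Lama1 to Vcan (0.45), Foxj1 to Hapln1 (0.32), Lyve1 to Hapln4 (0.18), Aqp1 to Tnr (0.19), Rtn4rl2 to Tnc (0.46), Ttr to Has2 (0.32) and Lhx6 to Has3 (0.31). For no member was another member the closest gene, and the smallest distance between 2 members was 0.79, between Vcan and Tnr. With 6 arrays and so many candidates, close patterns are to be found for any gene, and these distances are descriptions.

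The other genes of matrix metabolism were listed by function, and 0 of their genes passed the adjusted threshold in either direction in any of the 6 lists. Further link proteins and proteoglycans gave 7 higher and 3 lower genes, with a median difference of 0.04. Besides Hapln2, the small proteoglycan gene Dcn differed by 0.19 ± 0.16 and Bgn by -0.13 ± 0.12. Both depended on single samples, since Dcn differed by 0.07 without wild-type replicate 3 and 0.35 without wild-type replicate 2. Leaving out knockout replicate 2 gave 0.11 for Dcn, and leaving out knockout replicate 1 gave 0.31. For Bgn the value was -0.22 when knockout replicate 3 was left out and -0.01 when knockout replicate 1 was, and 0.04 with its probe sets averaged. The median of the list lay between 0.0021 and 0.07 without single samples.

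Hyaluronan turnover genes were higher for 10 and lower for 6 of 16, with a median of 0.0094. Cemip, whose product binds hyaluronan and takes part in its breakdown, had signals of 6.42, 6.42 and 6.28 in knockout, against 6.19, 6.06 and 5.94 in wild type. The groups did not overlap, and the difference was 0.31 ± 0.09 (limma adjusted p 0.849). The third synthase gene, Has1, had signals of 4.16, 4.26 and 3.99 in knockout, against 4.30, 4.35 and 4.40 in wild type, all of them dim. It differed by -0.21 ± 0.09, by -0.14 without knockout replicate 3 and by -0.27 without knockout replicate 2. All 3 synthase genes were thus lower on average in knockout, where 54.9% of all genes were higher, and none passed the adjusted threshold. The Has3 difference, -0.03 ± 0.14, was smaller than its standard error and turned sign without single samples. Its direction is therefore not settled. Itih2 differed by 0.21 ± 0.12, by 0.10 without knockout replicate 3 and by 0.28 without knockout replicate 2.

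Genes that build or trim chondroitin sulphate were split evenly, 10 higher and 10 lower of 20, with a median of -0.01. Chst13, which adds sulphate to chondroitin, had signals of 6.44, 6.28 and 6.24 in knockout, against 6.04, 5.92 and 5.97 in wild type. It was higher in all 3 knockout samples, by 0.35 ± 0.08 (limma adjusted p 0.849), and between 0.28 and 0.39 with any single sample left out. Csgalnact1, which starts the chondroitin chain on the linker, had signals of 5.37, 5.58 and 5.54 in knockout, against 5.87, 5.81 and 5.64 in wild type, a difference of -0.28 ± 0.10 without overlap. The chain-extending enzyme gene Chsy3 differed by -0.18 ± 0.08, and by -0.11 with its probe sets averaged.

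Proteases and inhibitors of the matrix were higher for 11 and lower for 6 of 17, with a median of 0.01. Adamts4, an aggrecanase that cuts lecticans, had signals of 5.54, 5.10 and 5.61 in knockout, against 5.90, 5.69 and 5.66 in wild type. The groups did not overlap, and the difference of -0.33 ± 0.14 was -0.43 without knockout replicate 3. It was -0.18 without knockout replicate 2, the sample that was also lowest in myelin markers. Whether those markers take part in it was not tested. Mmp14, a membrane-bound metalloproteinase, differed by 0.25 ± 0.10 and Adamts15, another aggrecanase, by 0.19 ± 0.09.

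Ligands and receptors of chondroitin sulphate and of nets were higher for 12 of 17, the highest median of the 6 lists at 0.10. In 4 of the 17 the groups did not overlap with knockout higher, and in 0 with knockout lower, where 6.41% and 4.45% of all genes were. The 4 were Ptprf, Nrcam, Nptx2 and Rtn4r. For Rtn4r the lowest knockout signal was 7.082 and the highest wild-type signal 7.0818, and for Nptx2 they were 6.91 and 6.89. The median was 0.05 without wild-type replicate 3. Ptprf, a phosphatase receptor of the LAR family that binds chondroitin sulphate, had signals of 7.07, 7.01 and 6.98 in knockout, against 6.89, 6.85 and 6.63 in wild type. It differed by 0.23 ± 0.09, by 0.15 without wild-type replicate 3 and by 0.28 without wild-type replicate 1. The plexin gene Plxna4, of the semaphorin receptors, differed by 0.16 ± 0.08, with overlap. Rtn4rl2, a relative of the Nogo receptor, also overlapped and differed by 0.20 ± 0.12. Its difference was 0.09 without wild-type replicate 1 and 0.32 without wild-type replicate 2.

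Basement membrane and other matrix genes gave 9 higher and 11 lower of 20, with a median of -0.0023. The thrombospondin gene Thbs1, of dim signal, differed by 0.29 ± 0.09 and the fibronectin gene Fn1 by 0.12 ± 0.07, both without overlap. Hspg2, which encodes perlecan, was lower without overlap and differed by -0.10 ± 0.08. It differed by -0.05 without knockout replicate 2 and by -0.13 without knockout replicate 1. Of the 20 genes, 2 were thus higher and 1 lower without overlap, where 6.41% and 4.45% of all genes were.

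**Figure D3:**
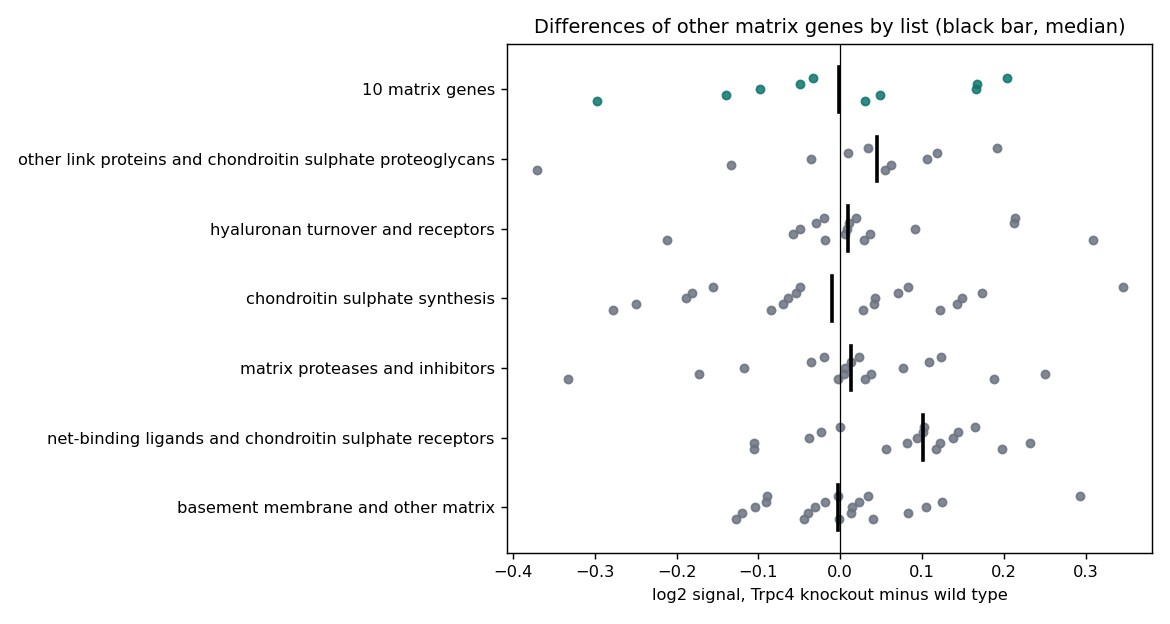
Log2 differences, Trpc4 knockout minus wild type, of single genes (points, spread vertically for legibility) in the 10 matrix genes (green) and 6 lists of other matrix genes (grey), with the median of each as a black bar. Medians lie between -0.01 (chondroitin sulphate synthesis) and 0.10 (ligands and receptors), and no point passed the adjusted threshold.

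Cells of the tissue, among them those that make or carry nets, were looked at through marker genes. Of 14 markers of fast-spiking and other GABAergic interneurons, 12 were lower and 2 higher in knockout, where 54.9% of all genes were higher. They had a median of -0.07 and a range of -0.19 to 0.19. That median was -0.03 without knockout replicate 3. Their mean deviation was -0.0090, -0.01 and -0.06 in knockout, against -0.0056, 0.07 and 0.02 in wild type. Pvalb, the calcium-binding protein of fast-spiking cells, had signals of 5.82, 5.45 and 5.66 in knockout, against 5.66, 5.79 and 6.03 in wild type. It overlapped between genotypes and differed by -0.19 ± 0.13, with -0.08 without wild-type replicate 3 and -0.09 without knockout replicate 2. The somatostatin gene Sst differed by -0.19 ± 0.12 and the neuregulin receptor gene Erbb4 by -0.11 ± 0.07, both with overlap. Sst differed by -0.12 without wild-type replicate 2 and by -0.30 without wild-type replicate 3. Pvalb, Sst and Erbb4 are the 3 of the 14 with the smallest unadjusted limma p. Kcnc1, Kcnc2 and Lhx6 stood at 99.4%, 99.9% and 98.8% of wild type. The 2 higher genes were Tac1, of dim signal, and Cck.

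CA2 markers were higher for 4 of 7, with a median of 0.0043. Rgs14, a signalling regulator of CA2 cells, averaged 7.58 ± 0.04 in knockout and 7.35 ± 0.17 in wild type (SD, n = 3 each). The groups did not overlap, but the lowest knockout signal was 7.543 and the highest wild-type signal 7.535. Of all genes, 6.41% were higher without overlap. The Rgs14 difference was 0.23 ± 0.10 (limma adjusted p 0.853), 0.15 without wild-type replicate 3 and 0.32 without wild-type replicate 1. Map3k15, of dim signal, differed by 0.30 ± 0.12 and Cacng5 by -0.21 ± 0.11. Cacng5 differed by -0.11 without knockout replicate 1 and by -0.31 without knockout replicate 3. Astrocyte markers were lower for 7 of 12 (median -0.0062) and oligodendrocyte precursor markers for 4 of 9 (median 0.0054). Markers of hippocampal pyramidal and granule neurons were higher for 8 of 12 (median 0.05). Microglial markers were lower for 6 of 10, endothelial, mural and fibroblast markers for 10 of 13, and choroid plexus and ependymal markers for 7 of 8, with medians of -0.01, -0.05 and -0.15. No marker in these lists passed the adjusted threshold, and the part of any of them in the matrix gene values was not tested.

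**Figure D4:**
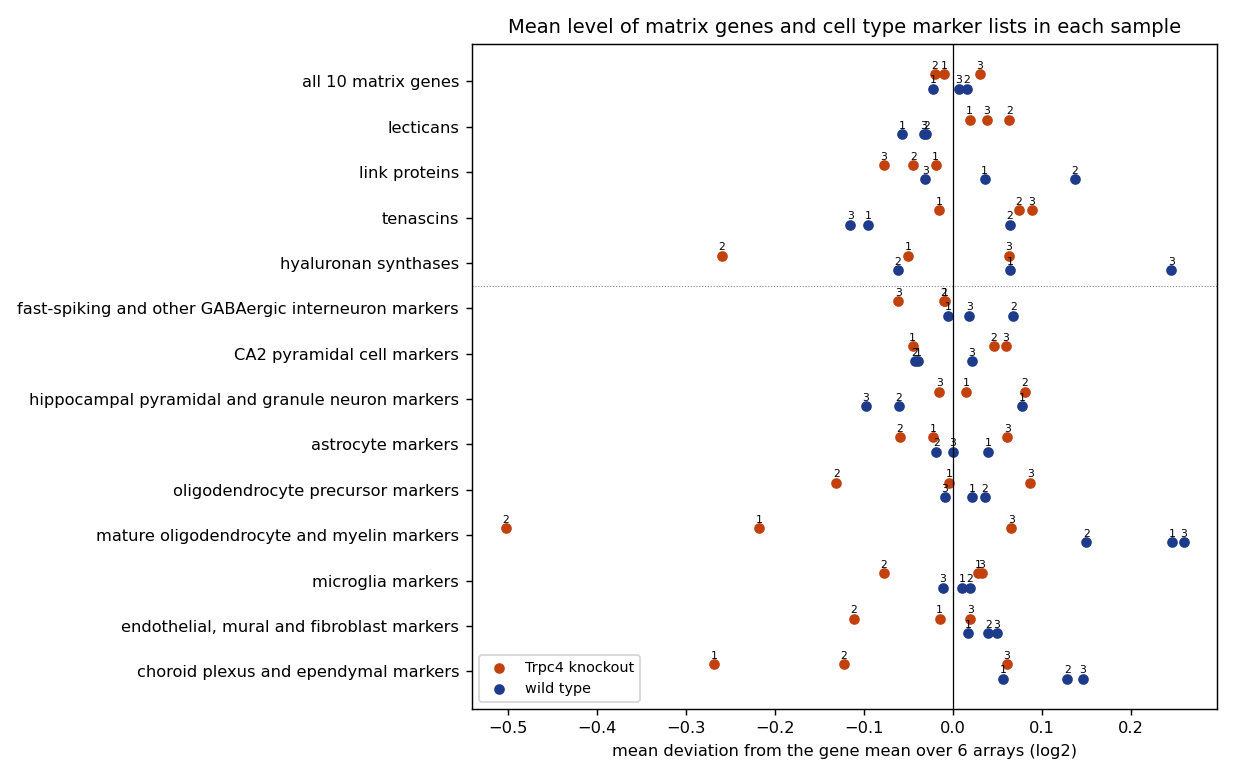
Mean deviation from the gene mean over 6 arrays (log2) for the matrix genes by role (top) and for 9 lists of cell type markers (below the dotted line), 1 point per sample with its replicate number, Trpc4 knockout (orange) above wild type (blue). The mean over the 10 matrix genes runs from -0.02 to 0.03, with 5 genes higher and 5 lower in knockout, so single genes spread more widely. The synthase genes reach -0.26 in knockout replicate 2. Mature oligodendrocyte and myelin markers run from -0.50 in knockout replicate 2 to 0.26 in wild-type replicate 3.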

How the data were processed

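Total RNA was extracted with Trizol and labelled as biotinylated sense cDNA, per the labels' protocols. The authors deposited log2 values for 41345 probe sets on 6 arrays. Per the submitters' processing notes, Affymetrix Power Tools and RMA produced them. Tool versions and the build were not given in the sources used here. RMA in general equalises array distributions, which hides a shift common to most genes. Precision is set by the 6 arrays: a difference had a median standard error of 0.10.

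Of the probe sets, 23521 named 1 gene in the platform's annotation, whose symbols may be outdated, 1814 named several and 16010 none. The one with the highest mean stood for its gene, giving 22180 genes, of which 21994 were matched by gene number to RefSeq, used only for names and gene order. The fit, limma 3.58.1 under R 4.3.3, held 1 term for genotype and was tested on simulated data. Plots used matplotlib 3.10.9 in Python 3.11.15. The matrix genes, lists and rules were chosen with earlier results of these data known. Named genes are the 10 matrix genes, Trpc4, Hapln2, Hapln3, the 3 smallest unadjusted p of each matrix and cell type list, any gene past the adjusted threshold, and the nearest pattern to a member among listed genes. Has2os was chosen after its values were seen. Nrcam, Nptx2, Rtn4r, Kcnc1, Kcnc2, Tac1 and Cck were also named outside this rule, for their values. The lists held 208 genes, of which 195 were measured. Markers of interneurons, CA2 cells and myelin are named, and the other marker lists are given by counts only. Replicate numbers are shared by both genotypes, but the labels state no pairing.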

Additional observations from a re-analysis of the deposited data

How the results depend on the processing

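The count of 0 matrix genes past the adjusted threshold held under a replicate block, quantile normalization, averaged probe sets, median centring, array weights, trend with robust variance, every probe set of 1 gene, a fit without dim genes, and without each sample. Over all genes the adjusted count of 0 became 1 with trend and robust variance (Trpc4), and 0 to 1 without single samples (1 without knockout replicate 1). The 1 matrix gene at an unadjusted limma p under 0.05 became 2 with trend and robust variance and 0 without dim genes, a fit that drops Has2 and Acan. It was 0 to 2 without single samples (0 without knockout replicates 1 or 2 or wild-type replicate 1, and 2 without wild-type replicate 2). The 2 genes without overlap became 1 with averaged probe sets and 2 to 5 without single samples (4 without knockout replicate 3, 5 without wild-type replicate 2, 3 without wild-type replicate 3). The median difference of the 10 genes lay between -0.0085 and 0.041 without single samples. Signs turned without single samples for Tnr (-0.023 to 0.088), Hapln4 (-0.10 to 0.013) and Has3 (-0.11 to 0.11), and for Bgn with averaged probe sets (0.036). The cause was not tested. Deviations of same-numbered samples correlated at 0.067, 0.035 and -0.0038, so the numbers were not used as pairs. With the replicate block 1316 genes, against 1276, had an unadjusted p under 0.05, and no call changed. For the genes given with a difference other than the 10 and Trpc4, these alternatives were added after seeing the data.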
